A study of Mus musculus with 4 samples.

Results

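The genes described here run the G1 phase of the cell cycle: the D-type cyclins Ccnd1, Ccnd2 and Ccnd3, the cyclin-dependent kinases Cdk4 and Cdk6, the kinase inhibitors Cdkn1a, Cdkn1b, Cdkn1c and Cdkn2c, and the retinoblastoma gene Rb1. They were taken by name, as 10 of the 32272 genes counted. The rule uses no measured value, but the genes were chosen with earlier results of these data known. To them were added the 221 of 174339 chromatin accessibility peaks that lie within 50 kb of a gene's annotated starts. The nuclei came from hematopoietic stem and progenitor cells (HSPCs), sorted by flow cytometry as Lin- cKit+ from the bone marrow of 8-week-old C57BL/6 wild-type male mice. In the LIP group a silk ligature had been kept around the teeth for 14 d to induce periodontitis, and in the Ctrl group the mice stayed unligated for the same time. Marrow of 5 mice was pooled in each group, so a group is 1 sample, and RNA and open chromatin were read from the same nuclei. The matrix of counts holds both groups, and its barcodes carry a suffix, 1 or 2, that no label ties to a group. These are called library 1 and library 2 below, no comparison of LIP with Ctrl was made, and no test was possible with 1 library on each side.

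D-type cyclins bind Cdk4 or Cdk6 as a cell answers growth factors, and the active kinases phosphorylate the Rb protein, which frees E2F factors to switch on genes of DNA replication. Proteins of the Cip/Kip family (p21 from Cdkn1a, p27 from Cdkn1b, p57 from Cdkn1c) bind cyclin and kinase complexes, and p18 from Cdkn2c is an INK4 protein that binds Cdk4 and Cdk6 alone. In blood formation Cdk6 is known from stem cell exit from quiescence, Ccnd3 from the expansion of B and T cell precursors and of erythroid cells, and Cdkn1c from quiescent stem cells.

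The following windows, each the middle 300 bases of a peak, are shown because they lie at peaks near Ccnd3 and Rb1 that were more open in pro-B-like or EryP-like nuclei, as described further on. They are the plus strand of GRCm38.p6, and capitals mark matches to short motifs, whereas the rest is in lower case.
Ccnd3, chr17:47535872-47536171, intron of Ccnd3: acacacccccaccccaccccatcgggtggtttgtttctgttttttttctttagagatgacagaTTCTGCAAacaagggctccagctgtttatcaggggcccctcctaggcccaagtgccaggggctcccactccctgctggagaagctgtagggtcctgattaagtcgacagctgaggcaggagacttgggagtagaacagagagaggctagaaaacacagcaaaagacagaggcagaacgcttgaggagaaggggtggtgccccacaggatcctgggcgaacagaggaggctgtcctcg
Ccnd3, chr17:47553047-47553346, intron of Ccnd3: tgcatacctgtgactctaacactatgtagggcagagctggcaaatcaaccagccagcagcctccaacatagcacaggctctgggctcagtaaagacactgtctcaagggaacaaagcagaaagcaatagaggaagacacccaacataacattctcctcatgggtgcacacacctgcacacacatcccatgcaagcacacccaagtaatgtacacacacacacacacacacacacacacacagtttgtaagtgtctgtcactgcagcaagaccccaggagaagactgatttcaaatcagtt
Rb1, chr14:73340501-73340800, between genes: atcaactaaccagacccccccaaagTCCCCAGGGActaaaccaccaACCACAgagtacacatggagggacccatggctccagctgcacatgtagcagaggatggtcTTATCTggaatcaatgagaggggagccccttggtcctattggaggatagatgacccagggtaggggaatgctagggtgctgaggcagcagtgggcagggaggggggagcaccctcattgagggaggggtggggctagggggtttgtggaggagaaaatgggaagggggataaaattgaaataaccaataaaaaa
The motifs were searched on both strands as exact letters. They were TTTCCCGC and TTTGGCGC for E2F, TGTGGT for RUNX, AGATAA for GATA, TTGCNNAA for CEBP, GAGGAAGT for PU.1, TGTTTAC for FOXO, TTCCNGGAA for STAT and CACGTG for the MYC E-box, together with the EBF motif and a pair of p53 cores. The Rb1 window held 1 match each to EBF, RUNX and GATA. The Ccnd3 window first in order held 1 CEBP match, and the second held none of the letters searched. Only these exact letters were searched, so a window without a match may still hold another form of a motif, GATA included. No match overlapped another. Among the middle 300 bases of 174282 peaks, RUNX letters occurred in 29.7%, CEBP in 14.2%, GATA in 13.3% and PU.1 in 9.80%, so these are common in any peak. Rarer were E-box letters at 5.52%, FOXO at 3.76%, EBF at 1.05%, STAT at 1.02%, the p53 pair at 0.932% and the 2 E2F strings at 0.397% and 0.251%. A match is a run of letters and no evidence of binding.

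Of 18961 barcodes, 13619 passed the limits of at least 200 genes and 1000 to 50000 accessibility counts, 5905 in library 1 and 7714 in library 2. The median nucleus held 1641 unique RNA molecules (UMIs) and 19471 accessibility counts in library 1, and 1516.5 and 16284 in library 2. Genes at the ribosomal RNA locus took 43.0% and 53.2% of the UMIs, so RNA levels are given as CPM, a gene's share of the UMIs outside that locus scaled to a fixed total. The libraries shared 146 barcode sequences, 72 of them among kept nuclei, and RNA free in the droplets was not removed. Clustering on both data types, without the genes described here, the cell cycle genes or the nearby peaks, gave 20 clusters. Of these 14 could be named from marker genes, 6 could not and are given by number, and 18 had at least 50 nuclei in each library and were compared. Nuclei with mature B cell markers were present (193 and 81) although the sort removed lineage-positive cells.

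Across all nuclei, Cdk6 gave the most UMIs of the 10 genes, 8845 in library 1 and 5841 in library 2, and Cdkn1c the fewest, 3 and 4. Introns are counted in nuclei, so long genes may collect more UMIs, which was not tested. Levels are therefore also given per kb of annotated gene. That scale favours short genes if UMIs do not grow with length, so neither scale ranks the genes by abundance. On that scale (CPM per kb) Cdkn1b stood at 16.2 and 10.9, Cdk4 at 13 and 15, Ccnd2 at 8.70 and 6.65, and Cdk6, spread over 189.524 kb, at 7.96 and 5.25. Lower, in the order of library 1, were Ccnd1 (4.64 and 2.30), Cdkn1a (4.21 and 3.67), Cdkn2c (3.08 and 1.62), Ccnd3 (2.0 and 1.24), Rb1 (0.852 and 0.422) and Cdkn1c (0.189 and 0.251). Hence the compact kinase and inhibitor genes Cdk4 and Cdkn1b led per length in both libraries, in either order. Ccnd1, Ccnd3 and Cdk4 overlap LTO1, Bysl and Tspan31, respectively, each on the opposite strand. Whether reads are shared depends on the strand rule of the counting, which is not stated in the sources read here.

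A gene was called raised in a cluster if its CPM was at least 2 times that of all other nuclei of the same library, in both libraries, with at least 10 UMIs in the cluster in each. It was called lowered if at most 0.5 times, with at least 10 UMIs expected. By this rule of size, which is no test, 2 of the 10 genes were raised in at least 1 cluster, Ccnd1 and Ccnd3, and 3 were lowered, Ccnd1, Cdk6 and Cdkn1a. Over the 8385 genes that reached 50 UMIs in both libraries the shares were 15.8% raised and 12.9% lowered. All of the 10 but Cdkn1c had that many UMIs, and counts of 2 and 3 among so few genes cannot be told apart from these shares. Cdkn1a is named here with the limit that its call was lost under 8 of 12 other settings, whereas Ccnd3 was raised in a pro-B-like cluster under all 12 and Cdk6 lowered in NeuP-like and cMoP-like nuclei under 11. Ccnd1 was raised in a cluster under all 12, but that cluster took other names under some, and its lowered call in GMP-like nuclei was lost with a minimum of 500 genes per nucleus and with a minimum of 20 UMIs.

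**Figure D1:**
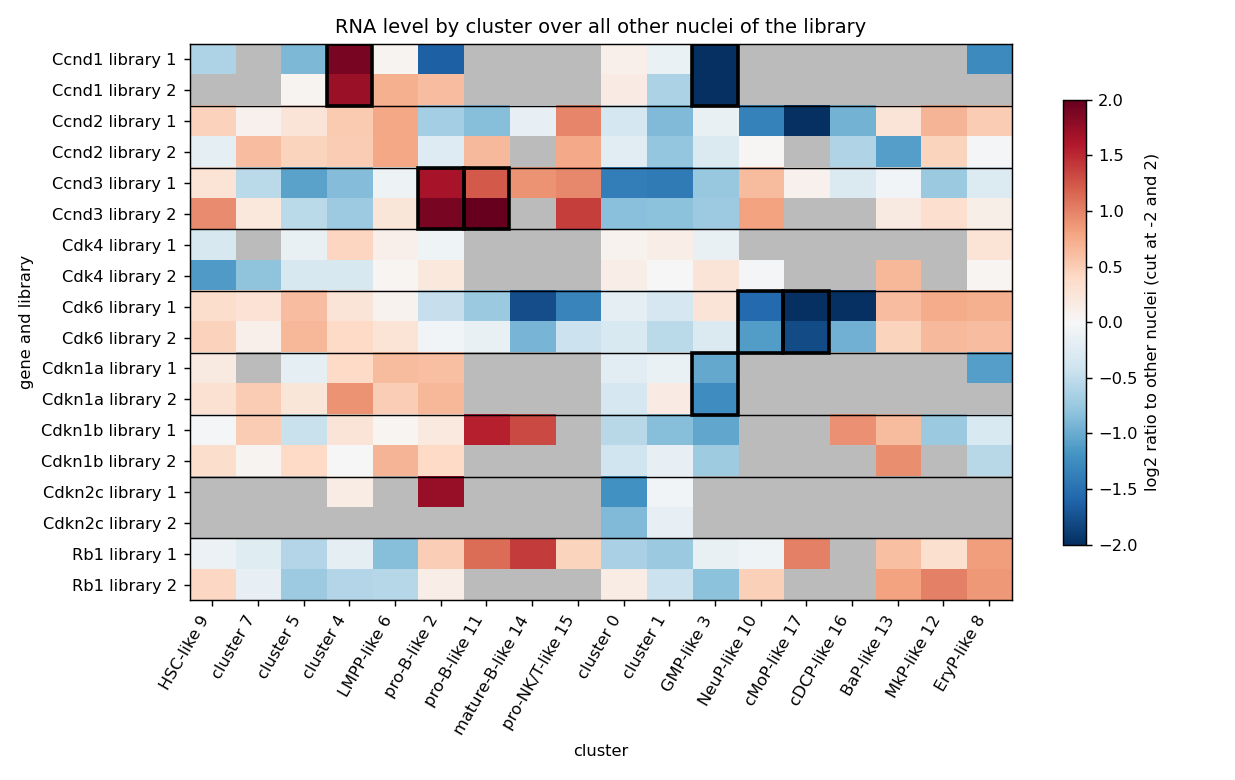
RNA level of 9 genes (y axis, a line for each library) in the 18 compared clusters (x axis) as the log2 ratio to all other nuclei of the same library, from blue at -2 to red at 2. Grey squares had under 10 UMIs both observed and expected, and black frames mark the calls, which are Ccnd1 raised in cluster 4 and lowered in GMP-like nuclei, Ccnd3 raised in both pro-B-like clusters, Cdk6 lowered in NeuP-like and cMoP-like nuclei, and Cdkn1a lowered in GMP-like nuclei.

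Ccnd3 had its highest levels in the pro-B-like nuclei. Its gene lies at chr17:47505051-47599691 on the plus strand. In pro-B-like cluster 2, led by Gfra2, Cplx2 and Ebf1, it stood at 448 CPM (95% Poisson interval 405 to 493, 404 UMIs) in library 1 and 386 (318 to 464, 112 UMIs) in library 2, or 3.15 and 3.74 times the other nuclei. In pro-B-like cluster 11, led by Igll1 and Vpreb1, it stood at 431 (328 to 556) and 487 (318 to 714), or 2.35 and 4.28 times. The intervals of these clusters overlapped each other, so their order is not resolved. Of genes testable in cluster 2, 5.97% were raised there, and of those testable in cluster 11, 13.8%. All intervals here cover counting error only, not differences between mice.

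Outside the pro-B-like clusters, pro-NK/T-like nuclei came next at 363 CPM (247 to 516) and 302 (173 to 491), 1.95 and 2.62 times the other nuclei and so just outside the rule in library 1. Mature-B-like nuclei held 346 (245 to 475) in library 1, but 145 (47.1 to 339) from 5 UMIs in library 2. The intervals of pro-NK/T-like and mature-B-like nuclei overlapped those of both pro-B-like clusters in each library, so that order is not resolved either. Among progenitors the HSC-like nuclei, with the stem cell regulators Mecom and Hlf, held 227 and 219, and LMPP-like nuclei 177 and 137, with overlapping intervals in both libraries. NeuP-like nuclei held 289 (192 to 418) and 200.2 (139 to 280), and BaP-like nuclei 182 and 132, so clusters outside the lymphoid lineages lay among these levels. At the lower end were clusters 0 and 1, led by Tnf and Nrg1, with 81.1 and 75.3 CPM in library 1 and 71.9 in each in library 2, 0.385 and 0.373 times the other nuclei in library 1 but 0.560 and 0.565 in library 2. In library 2 cMoP-like nuclei had 38.5, from 2 UMIs.

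Ccnd1 (chr7:144929931-144939925, minus strand) gave the fewest UMIs of the D-type cyclins, although per kb of annotated gene it stood above Ccnd3. The length of Ccnd3 runs from its outermost 5' end, whereas its start peak with most counts lies 88481 bp from there, so this order depends on the length taken. It was raised in unnamed cluster 4, led by Col19a1, Ephb2, Ccnd1 itself and Runx2, at 134 CPM (107 to 167, 82 UMIs) in library 1 and 65.2 (43.0 to 94.9, 27 UMIs) in library 2, 3.72 and 3.30 times the other nuclei. Only 0.512% of testable genes were raised in that cluster. The cluster came out of a grouping that did not use Ccnd1. Its summed LMPP markers were 3093 and 2067 CPM, against 5789 and 3925 in LMPP-like nuclei and a lowest of 510 and 414. Its summed markers of plasmacytoid dendritic precursors (pDCP list) were 1755 and 1041 CPM, against 10132 and 5154 in the pDCP-like cluster 19 and a lowest of 242 and 236. Pro-B-like cluster 11 held 1798 and 1218 and LMPP-like nuclei 1555 and 1122 without a raised Ccnd1, and the part of such nuclei in the Ccnd1 level was not tested. Cluster 19 itself held 56 and 30 nuclei and was not compared. There Ccnd1 stood at 432 CPM (260 to 674, 19 UMIs) and 227 (61.7 to 580, 4 UMIs). cDCP-like nuclei held 108 and 85.3 CPM from 7 and 5 UMIs, too few for a call.

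Ccnd1 was lowered in GMP-like nuclei, the granulocyte and monocyte progenitors marked by Ctsg and Elane, with 3.44 CPM (0.0872 to 19.2) and 3.22 (0.390 to 11.6). These levels rest on 1 and 2 UMIs where 14.1 and 15.7 were expected, or 0.0708 (library 1) and 0.127 (library 2) times the other nuclei. Of testable genes 4.5% were lowered in that cluster. Pro-NK/T-like nuclei gave 0 UMIs in each library, which allows up to 35.2 and 56.7 CPM by the limit of 3 counts. In pro-B-like cluster 2, where Ccnd3 was high, Ccnd1 stood at 16.6 (9.30 to 27.4) and 34.5 (16.5 to 63.4), 0.321 times the other nuclei in library 1 but 1.54 times in library 2, so no direction was shared.

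Ccnd2 (chr6:127125162-127152193, minus strand) was called in no cluster. Over all nuclei it stood at 235 CPM (223 to 248) and 180 (169 to 191). The highest level was in pro-NK/T-like nuclei, 457 (325 to 625) and 302 (173 to 491), and next in LMPP-like nuclei, the lymphoid-primed progenitors with Flt3 and Dntt, 379 (325 to 440) and 294 (243 to 353). These intervals overlapped each other and those of MkP-like nuclei, 371 (277 to 487) and 243 (167 to 341), so the order is not resolved. LMPP-like nuclei were 1.70 and 1.71 times the others, under the 2-fold rule but alike in both libraries. The lowest was in cMoP-like nuclei at 20.1 and 77.0, from 1 and 4 UMIs. NeuP-like neutrophil precursors lay at 93.0 (42.5 to 177) in library 1, 0.391 times, but at 183 (124 to 259) in library 2, 1.02 times.

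**Figure D2:**
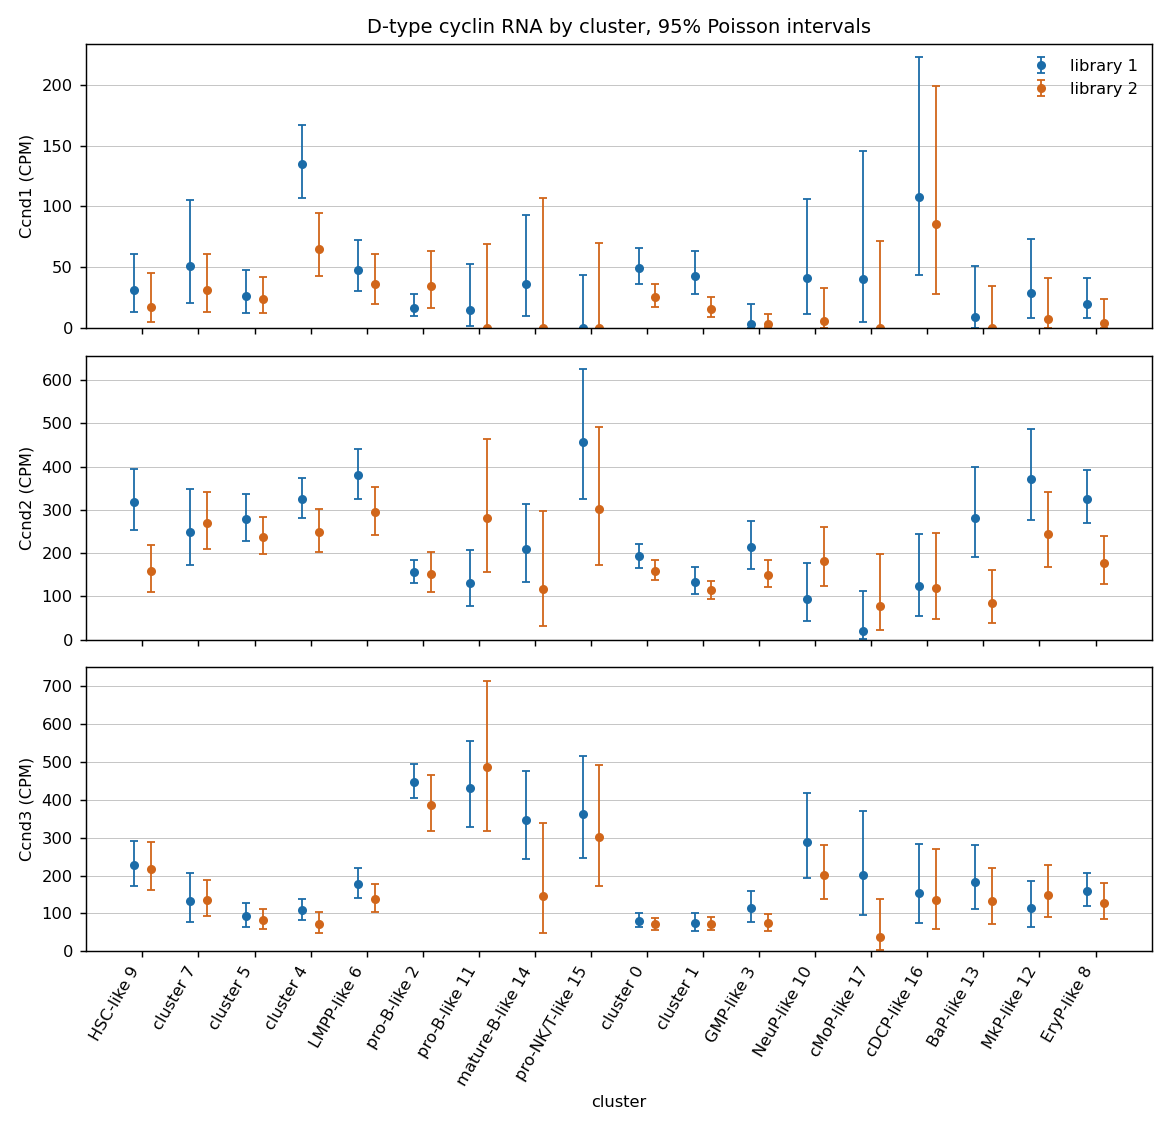
CPM of Ccnd1, Ccnd2 and Ccnd3 (y axes, from 0) in the 18 compared clusters (x axis), with library 1 in blue and library 2 in orange and bars for 95% Poisson intervals. Ccnd1 reaches 134 and 65.2 CPM in cluster 4, Ccnd2 is spread over most clusters, and Ccnd3 stands at 386 to 487 CPM in the pro-B-like clusters.

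Shares within the family put these patterns side by side. Of all UMIs of the 3 D-type cyclins, Ccnd2 took 49.98% and 56.2%, Ccnd3 40.2% and 36.6%, and Ccnd1 9.85% and 7.19%. The share of Ccnd3 was higher in the pro-B-like nuclei: 72.1% (95% Clopper-Pearson interval 68.2 to 75.8) and 67.5% (59.8 to 74.5) in cluster 2, and 74.7% and 63.4% in cluster 11. In NeuP-like nuclei its share of UMIs was 68.3% (51.9 to 81.9) and 51.5% (38.9 to 64.0), and in mature-B-like nuclei 58.5% and 55.6%, the latter of 9 UMIs. In LMPP-like nuclei Ccnd2 took 62.8% and 63.0%, and in MkP-like megakaryocyte precursors 72.2% and 61.1%. Ccnd3 took 29.2% (24.0 to 35.0) and 29.3% (22.8 to 36.5) in LMPP-like nuclei, so its share of UMIs differed between LMPP-like and pro-B-like nuclei beyond counting error in both libraries. Ccnd1 took 23.7% (19.3 to 28.5) and 16.9% (11.4 to 23.6) in cluster 4, and 1.04% and 1.42% in GMP-like nuclei. These shares are of UMIs and carry the different lengths of the genes, so they compare clusters and do not say which cyclin is the more abundant.

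Of the kinases, Cdk6 varied by lineage. Cdk6 (chr5:3341485-3531008, plus strand) stood at 1508 CPM and 994.6 over all nuclei. Over the 18 clusters its level ran from 222 in cMoP-like nuclei through a median of 1464 to 2484 in MkP-like nuclei in library 1, and from 289 through 928.5 to 1539 in the same clusters in library 2. MkP-like and EryP-like nuclei, the megakaryocyte and erythroid precursors, were at the upper end in both libraries, MkP-like nuclei with the highest level in each, with EryP-like at 2388 (2229 to 2554) and 1494 (1342 to 1658). Cluster 5, led by Slc24a3 and Mdga1, stood alongside at 2238 (2091 to 2392) and 1499 (1395 to 1610), and BaP-like nuclei at 2298 and 1346. The intervals of MkP-like, EryP-like and cluster 5 nuclei overlapped, so which is higher is not resolved.

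Cdk6 was lowered in NeuP-like nuclei, which carry the granule genes Ltf and Ngp, at 517 CPM (384 to 681, 50 UMIs) and 465 (368 to 580, 79 UMIs), 0.339 and 0.461 times the other nuclei. It was lowered too in cMoP-like nuclei, the monocyte precursors with Fn1 and Ccr2, at 222 (111 to 397, 11 UMIs) and 289 (162 to 477, 15 UMIs), 0.146 and 0.289 times. Of testable genes 8.19% were lowered in the NeuP-like and 4.92% in the cMoP-like cluster. GMP-like nuclei, in contrast, were at 1794 and 831 CPM, 1.2 and 0.820 times the others, so the lower Cdk6 of NeuP-like and cMoP-like nuclei was not seen in GMP-like nuclei. Mature-B-like nuclei were low as well, at 446 (330 to 590) and 522 (310 to 826), but at 0.524 times the others in library 2 lay just outside the rule. The same held for cDCP-like nuclei with 278 and 512 CPM, 0.182 and 0.512 times.

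Cdk4 (chr10:127063534-127067920, plus strand) was called in no cluster. In library 1 it ran from 30.9 to 73.8 CPM around a median of 53, and in library 2 from 30.6 to 174 around 66.7. The highest value in library 2, in mature-B-like nuclei, rests on 6 UMIs (63.9 to 379), and the lowest, in HSC-like nuclei, on 7 (12.3 to 63.0). The intervals of these 2 clusters were apart in library 2 but overlapped in library 1 (25.6 to 131 and 23.8 to 80.5). Neighbours in the order of its levels had overlapping intervals in each library, which does not show an even level. Cdk6 made up 96.4% (96.0 to 96.7) and 93.8% (93.2 to 94.4) of the UMIs of this kinase pair over all nuclei. The Cdk6 gene is much the longer, and the part of gene length in this share was not tested. In NeuP-like nuclei the share was 94.3% (84.3 to 98.8) and 87.8% (79.2 to 93.7), in MkP-like nuclei 98.3% and 97.2%.

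Among the inhibitors, Cdkn1a, the p53 target p21 (chr17:29090976-29100727, plus strand), was lowered in GMP-like nuclei at 20.7 CPM (7.58 to 45.0, 6 UMIs) and 16.1 (7.72 to 29.6, 10 UMIs), 0.490 and 0.423 times the other nuclei. That call lies at the edge of the rule and on few UMIs. EryP-like nuclei had 19.8 and 4.23 CPM from 7 and 1 UMIs, where 8.76 UMIs were expected in library 2, under the minimum of 10. Its higher levels with more than 10 UMIs in each library were 61.1 and 49.0 in LMPP-like nuclei, 57.6 and 55.1 in pro-B-like cluster 2 and 52.5 and 62.8 in cluster 4, all with overlapping intervals. Pro-B-like cluster 2 was 1.51 and 1.59 times the other nuclei, short of the rule.

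**Figure D3:**
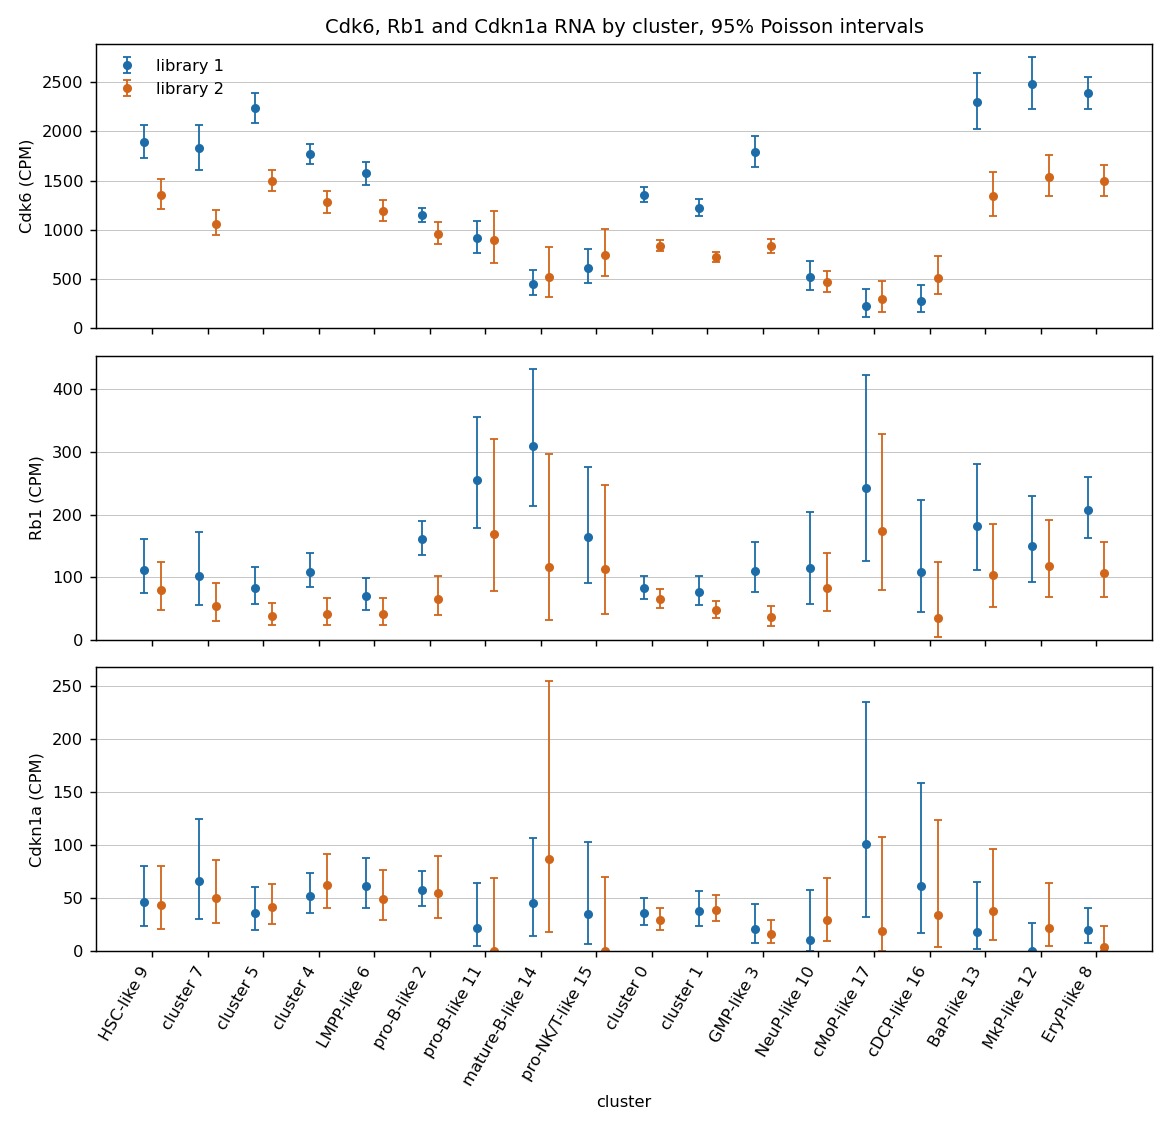
CPM of Cdk6, Rb1 and Cdkn1a (y axes, from 0) in the 18 compared clusters (x axis), library 1 in blue and library 2 in orange, with 95% Poisson intervals as bars. Cdk6 is at 222 to 517 CPM in the NeuP-like and cMoP-like clusters and at 1494 to 2484 CPM in EryP-like and MkP-like nuclei in both libraries, whereas the wide bars of Cdkn1a overlap in most clusters.

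Cdkn1b (p27, chr6:134920401-134925513, plus strand) was at 82.9 CPM (75.7 to 90.6) and 55.5 (49.6 to 61.9) over all nuclei and was called nowhere. In library 1 it peaked in pro-B-like cluster 11 at 234 (160 to 330, 32 UMIs) and mature-B-like nuclei at 200 (126 to 303), but library 2 gave 56.2 and 29.0 there from 3 and 1 UMIs. GMP-like nuclei were at 41.3 (21.3 to 72.2) and 35.4 (22.2 to 53.6), 0.486 and 0.612 times the others. The higher level in pro-B-like cluster 11 and mature-B-like nuclei was therefore seen in library 1 alone. Library 2 had too few UMIs there to show it or not, with intervals up to 164 and 162 CPM. Pro-B-like cluster 2 was at 93.1 and 72.4 CPM, 1.15 and 1.32 times the other nuclei.

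Cdkn2c (p18, chr4:109660876-109667189, minus strand) had the same direction in both libraries in pro-B-like cluster 2: 47.6 CPM (34.5 to 64.2, 43 UMIs) and 31.0 (14.2 to 58.9, 9 UMIs), 3.33 and 3.39 times the other nuclei. With 9 UMIs in library 2 it missed the minimum by 1 and is no call. HSC-like nuclei held 0 UMIs in library 1 and 1 in library 2. Cdkn1c (p57, chr7:143458339-143461050, minus strand) was barely seen. Of its 7 UMIs, 2 each lay in LMPP-like nuclei of library 1 and in HSC-like nuclei of library 2, the latter a level of 8.74 CPM (1.06 to 31.6), and the HSC-like nuclei of library 1 gave 0, which allows up to 11.5 CPM by the same limit of 3 counts. At this depth no lineage pattern of Cdkn1c could be shown.

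Rb1 (chr14:73183673-73325822, minus strand) encodes the substrate of the D-type cyclin kinases. It stood at 121 CPM (112 to 130) and 59.9 (53.8 to 66.5) over all nuclei. Pro-B-like cluster 11 was at 256 (178 to 356, 35 UMIs) and 169 (77.1 to 320, 9 UMIs), 2.17 and 2.86 times the others, and cMoP-like nuclei at 242 and 173 from 12 and 9 UMIs, 2.01 and 2.94 times. Mature-B-like nuclei had the highest level of library 1, 310 (214 to 433, 34 UMIs), and 116 (31.6 to 297, 4 UMIs) in library 2, 2.63 and 1.95 times. These patterns shared a direction in the libraries, and all had under 10 UMIs in library 2. EryP-like nuclei were at 207 (162 to 260) and 106 (68.5 to 156), 1.79 and 1.82 times. LMPP-like nuclei were at the lower end with 69.8 and 41.3. Lpar6 and Rcbtb2 overlap the Rb1 gene on the opposite strand and Gm17233 on the same strand. Whether they share reads with it depends on the strand rule of the counting.

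Of 25 other genes of the same pathway, listed with earlier results of these data known, 20 reached 50 UMIs in both libraries. Of these, 3 were raised, all in pro-B-like cluster 2: the S phase activator E2f2 at 275 and 169 CPM (6.65 and 7.20 times the other nuclei), the atypical repressor E2f7 at 137 and 96.5 (5.28 and 6.82 times), and Skp2, which marks p27 for degradation, at 63.2 and 48.2 (2.21 and 3.03 times). Lowered were 3 as well. E2f2 was lowered in GMP-like nuclei (0.0851 and 0.342 times) and in cluster 5 (0.254 and 0.304), E2f7 in cluster 0 (0.362 and 0.375) and the E2F partner Tfdp2 in cluster 1 (0.350 and 0.423). Set against the 15.8% raised and 12.9% lowered over all genes, 3 of 20 in each direction is near the background, and 5.97% of testable genes were raised in cluster 2 itself. The shares of all testable genes lowered were 1.26% in cluster 5, 3.76% in cluster 0 and 4.04% in cluster 1. The INK4 genes Cdkn2a, with 0 and 9 UMIs, and Cdkn2b, with 0 in each library, were too scarce to place.

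Expression of cell cycle genes was set beside the cyclin levels. Summed over 42 S phase genes, pro-B-like cluster 2 had 7810 and 5796 CPM, and over 52 genes of G2 and mitosis 16470 and 12925, the highest of the 18 clusters in both libraries. In pro-B-like cluster 11 the sums were 2668 and 3222, and 4758 and 6351. Both sums were the lowest of the 18 clusters in library 1, whereas in library 2 only the S phase sum was near the lower end. Ccnd3 was raised in both pro-B-like clusters, although these sums differed between them. The part of cell cycle phase in the levels of Ccnd3, Cdkn2c and E2f2 in cluster 2 was not tested.

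Between the libraries, the median gene stood lower in library 2 by 0.37 on the log2 scale, and ratios are given relative to that shift. None of the 9 genes that reached 50 UMIs in both was 2-fold apart over all nuclei. Ccnd1 and Rb1 were each at log2 -0.64, Cdkn2c at -0.56, Ccnd3 at -0.32, Cdk6 at -0.23, Cdkn1b at -0.21 and Ccnd2 at -0.02, whereas Cdkn1a was at 0.17 and Cdk4 at 0.58. Over all 8385 genes, 1.16% were at least 2-fold higher in library 2 and 0.954% at least 2-fold lower. These are differences of 2 libraries, which also differ in the share of each lineage (805 and 388 nuclei in pro-B-like cluster 2, 301 and 744 in the GMP-like cluster).

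**Figure D4:**
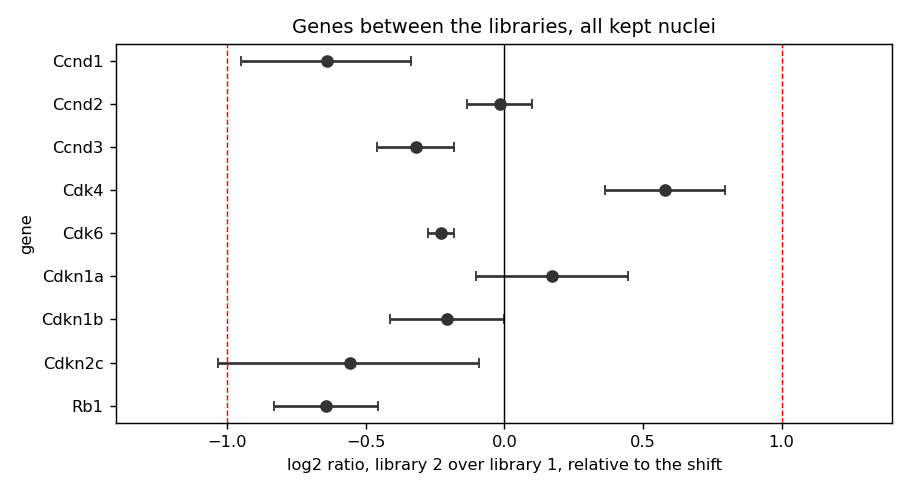
Log2 ratio of CPM in library 2 over library 1 (x axis), less the median shift of all genes, for 9 genes (y axis) over all kept nuclei, with 95% intervals from counting error as bars. No point passes the dashed lines at 2-fold, and the points run from -0.64 for Ccnd1 and Rb1 to 0.58 for Cdk4.

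Within clusters, 8 of 91 gene and cluster pairs with enough UMIs were at least 2-fold apart relative to the shift of the cluster, against 5.56% of such pairs over all genes. Rb1 made up 3 of them, lower in library 2 by log2 -1.07 in pro-B-like cluster 2, -1.14 in GMP-like nuclei and -1.08 in cluster 4. Ccnd1 was at -1.0 in cluster 1 and 1.28 in pro-B-like cluster 2, Cdk4 at 1.08 in GMP-like nuclei, Ccnd2 at 1.12 in pro-B-like cluster 11 and Cdk6 at 1.08 in cDCP-like nuclei. Rb1 was thus the gene with the most pairs on this list.

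Open chromatin near the genes was compared by the same rule. Most accessibility counts were even numbers, so they were taken as pairs. Of the 208 peaks with at least 50 pairs of counts in each library, 51 (24.5%) were raised in at least 1 cluster and 42 (20.2%) lowered. Over all 150626 such peaks the shares were 25.6% and 24.1%, so the neighbourhood of these genes was close to the background in both directions. All raised peaks came to 52 when those below that minimum were included, and 74 were raised or lowered. Of 23 peaks within 1 kb of a start of the genes, 4 were raised and 5 lowered, and of 198 others 48 were raised. Ccnd3 had 41 peaks with 15 raised, Cdkn1a 26 with 8, Ccnd2 24 with 8, Cdkn1c 22 with 6, Rb1 14 with 4 and Ccnd1 28 with 4. Cdk4 had 17 with 3, Cdk6 19 with 2 and Cdkn1b 17 with 2. Cdkn2c had 13 with none raised or lowered.

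By cluster, pro-B-like cluster 2 had 16 raised peaks of 148 testable near these genes (10.8%, background 10.2%), cluster 11 had 6 of 47 (12.8%, background 16.3%) and EryP-like nuclei 7 of 118 (5.93%, background 8.49%). Cluster 4 had 3 of 180 (1.67%, background 3.29%), LMPP-like nuclei 4 (2.78% of those testable, background 5.74%) and pro-NK/T-like nuclei 4 of 35 (11.4%, background 10.2%). None of these 6 shares stood far above the background. Of the 221 peaks, MkP-like nuclei had 6 raised, cDCP-like and GMP-like nuclei 4 each, where 1.73%, 1.15% and 2.81% of the 150626 peaks were raised, and the other compared clusters had 0 to 2. Lowered peaks outnumbered raised ones in pro-B-like cluster 2 (19) and EryP-like nuclei (12 against 8, a peak under 50 pairs included), where 12.2% and 6.82% of the 150626 peaks were lowered, also more than were raised. Clusters 0 (6 against 1) and 1 (3 against 1), HSC-like (5 against 2) and NeuP-like nuclei (4 against 0) were alike in both respects. In clusters 4 (5 against 3) and 5 (2 against 1) and BaP-like nuclei (3 against 1), more of all peaks were raised than lowered.

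At Ccnd3 raised peaks lay both within the long gene and outside it. The peak at chr17:47535569-47536475, 30971 bp from the 5' end and in an intron, was raised in EryP-like nuclei: 28.1 CPM of counts in peaks (22.3 to 34.9) and 30.2 (23.4 to 38.4), against 2.29 and 1.25 in the other nuclei, 12.2 and 24.2 times. Unnamed cluster 18, led by Sox6 and Slc25a21 and too small in library 2 to be compared, held 38.1 (26.7 to 52.7) and 17.5 (5.24 to 42.5) there, 12.7 and 8.02 times. MkP-like nuclei held 8.40 and 5.54 at this peak, and pro-B-like cluster 2 only 2.31 and 2.24. A second intronic peak, chr17:47552756-47553638, was raised in pro-B-like cluster 2 at 14.1 (11.7 to 16.9) and 10.7 (7.41 to 15), 8.66 and 12.6 times the others, and in cluster 11 at 18.7 and 17.2, 6.30 and 14.8 times. Mature-B-like nuclei held 19.9 (12.2 to 30.6) and 22.4 (9.01 to 46.2) at this peak, 6.39 and 18.3 times, with too few pairs in library 2 for a call. In EryP-like nuclei it was at 0.520 and 2.5. Of the 41 peaks near Ccnd3, 15 were raised, 5 in a pro-B-like and 4 in the EryP-like cluster. Over all testable peaks, 10.2% were raised in pro-B-like cluster 2 and 8.49% in EryP-like nuclei. The other EryP-like peaks lie outside the gene, 1 of them 112771 bp from the 5' end in an intron of Med20 with 14.7 and 6.33 times the other nuclei (named after its values were seen). The middles of the 2 intronic Ccnd3 peaks given by coordinates are among the windows printed above.

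The peak with most counts at a Ccnd3 start, chr17:47593094-47593970, was raised in neither of these lineages. It stood at 39.0 (34.9 to 43.4) and 34.0 (27.8 to 41.1) in pro-B-like cluster 2, 1.02 and 0.914 times the other nuclei, and at 39.0 and 34.5 in EryP-like nuclei. The other start peaks lay 5, 90661 and 93206 bp from the 5' end. In pro-B-like cluster 2 they were at 0.635 and 0.853, 0.372 and 0.448, and 1.36 and 0.790 times the other nuclei. In EryP-like nuclei they were at 1.05 and 0.863, 1.28 and 1.24, and 1.96 and 3.03 times. The starts of Ccnd3 were thus not all alike. Ccnd3 RNA was raised in pro-B-like nuclei but not in EryP-like nuclei (159 and 127 CPM, 0.831 and 1.09 times the others), although the intronic EryP-like peak had a larger ratio than the second intronic peak had in pro-B-like cluster 2. Across the 18 clusters, summed starts of Ccnd3 and its RNA had a Pearson r of 0.18 in each library, and all 41 peaks with its RNA 0.72 and 0.59. These are descriptions over 18 clusters of the same nuclei, which share library and depth.

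**Figure D5:**
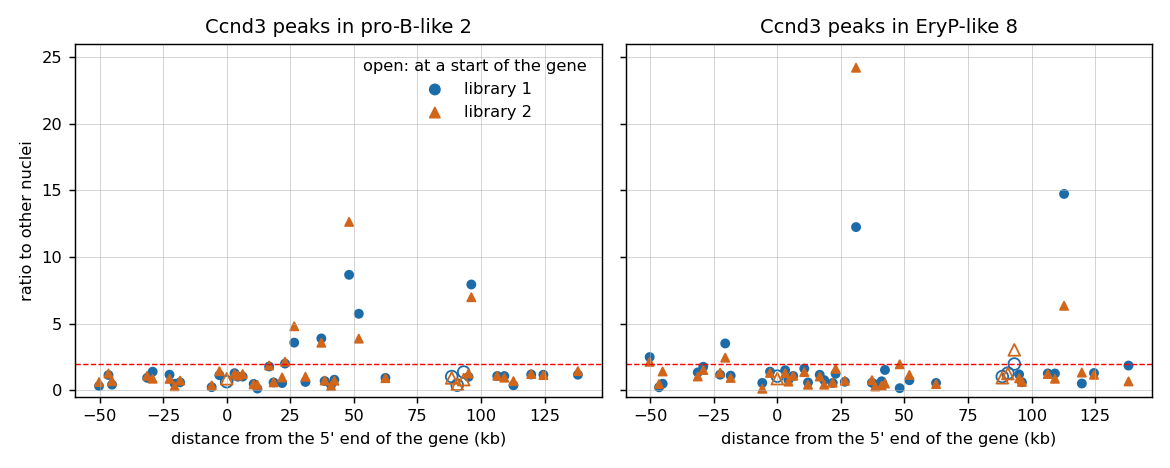
Ratio of accessibility to all other nuclei (y axis, linear) for each peak near Ccnd3 against its distance from the 5' end of the gene in kb (x axis), in pro-B-like cluster 2 (left) and EryP-like cluster 8 (right). Circles are library 1 and triangles library 2, open symbols are peaks at a start of the gene, and the dashed line is 2-fold. An intron peak reaches 12.2 and 24.2 in EryP-like nuclei and another 8.66 and 12.6 in pro-B-like nuclei.

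At Cdkn1a, all 8 raised peaks were raised in pro-B-like cluster 2, 2 of them in cluster 11 too. Over all testable peaks, 10.2% were raised in cluster 2 and 16.3% in cluster 11. Near Cdkn1a 8 of 26 peaks were raised in cluster 2, a larger share than over all testable peaks. Cluster 2 also had the most raised peaks of the compared clusters, 8333. Whether the count is particular to Cdkn1a was not tested. Among the raised peaks, that at -27000 bp, upstream in an intron of the noncoding gene Trp53cor1, had 7.46 CPM (5.74 to 9.55) and 6.89 (4.29 to 10.5) in cluster 2, 7.72 and 7.46 times the other nuclei. The peak at a Cdkn1a start with most counts had 24.1 (20.9 to 27.6) and 19.7 (15.1 to 25.3), 1.52 and 1.01 times the others. A second start peak, 8238 bp from the 5' end, was at 0.222 and 0.357 times in cluster 2. The upstream peak was named for its large ratio, so nothing is drawn from its excess over the start peaks. Cdkn1a RNA in this cluster was 1.51 and 1.59 times the other nuclei and not called.

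Single peaks near the other genes are given next. At the Cdk6 start, the NeuP-like nuclei with lowered RNA had 30.05 (20.8 to 42) and 27.3 (20.2 to 35.9), 1.54 and 1.35 times the others, so the start was no less open there. In cMoP-like nuclei it was at 1.67 and 0.993 times. Other start peaks were more open in NeuP-like nuclei too, such as Rb1 (2.04 and 1.36 times) and Cdkn2c (2.03 and 1.45), so this is not particular to Cdk6. Those of Ccnd1 (0.678 and 0.590) and Ccnd2 (0.383 and 0.259) were less open. A peak in Lockd, 30896 bp downstream of the Cdkn1b 5' end, had 6.07 and 5.68 in EryP-like nuclei, 8.43 and 12.2 times, on under 50 pairs in library 2. Cluster 18, not compared, held 8.99 there in library 1, 10.6 times, and 0 in library 2. The peak 14829 bp upstream of Rb1 had 5.27 and 4.96 in pro-B-like cluster 2, 4.08 and 4.31 times. Mature-B-like nuclei were higher there at 15.5 (8.88 to 25.2) and 11.2 (2.70 to 30.4), 9.60 and 8.70 times, whereas pro-B-like cluster 11 was at 0.654 times in library 1 and 5.26 times in library 2.

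At Ccnd2 the start itself differed between lineages. The start peak was raised in pro-NK/T-like nuclei, with 42.5 (29.8 to 58.7) and 47.2 (30.6 to 69.7), 2.37 and 2.74 times the others, and lowered in NeuP-like nuclei, with 7.07 and 4.63, 0.383 and 0.259 times. Pearson r between the summed start peaks and RNA over the 18 clusters was 0.79 and 0.54, the highest of the 10 genes in each library, and is a description over clusters that share library and depth. An upstream peak at 26004 bp was raised in LMPP-like nuclei at 19.96 and 19.7, 2.87 and 3.44 times. At Ccnd1, the start peak with most counts had 16.8 and 10.6 in cluster 4, 0.995 and 0.761 times the others. A sparse peak 18812 bp upstream had 2.83 and 2.20 there, 2.89 and 2.32 times. It was similarly open in EryP-like (2.54 and 3.53 times) and MkP-like nuclei (3.13 and 3.49 times), on too few pairs for a call. Ccnd1 RNA was at 0.413 and 0.178 times in EryP-like and 0.610 and 0.315 times in MkP-like nuclei. The start peak given here lies in an intron of Ccnd1, 2214 bp from the 5' end, and was no more open in cluster 4. Ccnd1 has 2 start peaks, and the other is not given here. At Cdk4, a peak in an intron of Os9 had 15.7 and 20.8 in pro-NK/T-like nuclei, 3.85 and 5.66 times.

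Genes whose levels ran most like those of these genes over 36 points (18 clusters in each library, each library centred) were found among 4108 genes that reached 200 UMIs in both libraries. For Cdk6 they were Srek1 (Pearson r 0.87), Kit (0.86), the receptor used in the sort, and Kctd1 (0.86). For Ccnd3 they were Ube2h (0.81), Pcmtd1 (0.80) and Resf1 (0.79), for Ccnd2 Bckdhb (0.82), Cct6a (0.79) and Serbp1 (0.78), and for Rb1 Slu7 (0.75), Kmt2e (0.68) and Nfia (0.68). Weaker likeness was found for Cdk4 (Pik3c3 0.68, Tcp1 0.66, Adam17 0.58), Cdkn1b (Usp3 0.68, Inpp5d 0.65, Map4k4 0.64) and Cdkn1a (Ttc7 0.65, Gm43305 0.64, Samd4b 0.63). The points share libraries and nuclei, and the best of 4108 genes was taken, so these values describe and do not test.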

How the data were processed

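Nuclear RNA and open chromatin of sorted HSPCs were measured in the same nuclei (10x multiome). The authors aligned reads to GRCm38 and made the deposited matrix of raw counts per gene and per peak with Cell Ranger ARC 2.0.0; per the labels they then used Seurat 4.0.3 and Signac 1.3.0. Both libraries stand in 1 matrix, 82.5% of peak entries were even, and intervals for peaks were therefore taken on pairs (counts divided by 2). It holds 0 mitochondrial genes. For strand and multiply mapped reads, the counting rules are not stated in the sources read here.

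Kept nuclei had at least 200 genes and 1000 to 50000 peak counts. Both data types (30 principal components; LSI dimensions 2 to 30) were corrected between libraries and clustered jointly at resolution 0.8 with Seurat 5.3.0 (R 4.3.3), leaving out the genes described, cell cycle genes and nearby peaks. Scrublet called 3 doublets among 13619 nuclei, too few to rely on, so no doublets were removed, and leaving out the top 8% of scores was an alternative. A cluster took a name where at least 3 markers of its list were raised and the leading genes did not go against it. Gene locations are from the GRCm38 annotation, to which 99.6% of gene identifiers matched, and windows were read from GRCm38.p6.

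Counts were summed per cluster and library. With 1 sample per group and libraries tied to no group there is no test: exact 95% Poisson (levels) and Clopper-Pearson (shares) intervals from scipy 1.17.1 cover counting error only. Code for all genes was checked on simulated data. Named were all 10 genes, pathway genes that were raised or lowered, the 3 most alike genes of each with at least 200 UMIs in each library, on log2(CPM + 10), the start peak with most counts and up to 2 further peaks with the largest ratio in the library where it is smaller. Some sequences and the peaks that hold them are not reported here. The genes and lists were chosen with earlier results of these data known.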

Additional observations from a re-analysis of the deposited data

How the results depend on the processing

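The count of 4 of 10 genes raised or lowered became 2 with a minimum of 500 genes per nucleus, where 10 clusters could be compared, 8 with a fold of 1.5, and, in alternatives chosen after seeing the data, 8 in library 1 alone and 7 in library 2 alone. The count of 74 peaks became 28 with 500 genes, 118 with a fold of 1.5, 26 of 81 peaks in a window of 10 kb, 140 in library 1 alone and 116 in library 2 alone. The other 24 recomputed counts stayed within 1.5 times, and the count of 0 genes past 2-fold between the libraries was 0 under each alternative run, other scaling included. None reversed. Ccnd1 and Ccnd3 had a call, not always in the same cluster, in all 12 alternatives, Cdk6 in 11 (all but the 500-gene minimum) and Cdkn1a in 4. Cdkn2c and Rb1 were called in 5 each. The cluster with raised Ccnd1 took the pDCP-like name at resolution 0.4 (4.76 and 4.01 times), and the cDCP-like name with RNA alone (4.56 and 4.41 times). Few UMIs limit several genes, Cdkn1c (3 and 4 UMIs) and Cdkn2c (114 and 60) among them, and free RNA was not removed. No paired analysis was possible because each group holds 1 sample and the results come from no test.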

Other observations

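Cluster 18, with Sox6, Slc25a21 and ribosomal protein genes such as Rpl15 in the lead, and the pDCP-like cluster 19, with Siglech, Tcf4 and Runx2, had under 50 nuclei in library 2 (32 and 30) and entered no comparison. In cluster 19 the D-type cyclin UMIs were 51.4% Ccnd1 in library 1 (95% Clopper-Pearson interval 34.4 to 68.1, 19 of 37 UMIs) and 36.4% in library 2 (10.9 to 69.2, 4 of 11 UMIs). Cdk6 stood there at 523 CPM (331 to 784) and 453 (196 to 893), 0.345 and 0.455 times the other nuclei, and Cdkn1a gave 0 UMIs in each library. Cluster 18 held Cdk6 at 1025 and 1368 CPM, and Ccnd3 at 171 and 85.5 CPM from 12 and 2 UMIs.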
